A study of Mus musculus with 24 samples.

Results

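Interferon-stimulated genes of the mouse thoracic aorta are described here across 3 diets in 24 RNA sequencing libraries. The list held 42 genes that are induced by interferons, and 41 of them matched a row of the deposited table of 25941 genes by symbol, with 0 symbols repeated; Psmb9 matched no symbol and its expression was not analysed here. Of the 41, 29 are known mainly as targets of type I interferon (type I-type) and 12 mainly as targets of interferon-gamma (gamma-type), although most respond to both. All 41 passed the filter on low counts, which left 14528 genes in the test. The mice were adult male wildtype C57BL/6 animals of 10 to 12 weeks. The control group ate plain chow, chow of the celecoxib group carried 100 mg/kg/day of the drug, and chow of the rofecoxib group 50 mg/kg/day, each for 3 weeks and with 8 libraries. Every mouse, controls included, received interleukin-1β at 10 ug/kg into the abdominal cavity 4 h before collection at zeitgeber time 11, so no group shows the aorta without the cytokine. Both drugs inhibit cyclooxygenase-2, the prostaglandin-forming enzyme encoded by Ptgs2, and their doses differed, so agent and dose cannot be told apart between the drug groups.

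Type I interferons signal through the receptor chains Ifnar1 and Ifnar2 and the kinases Jak1 and Tyk2 to a complex that holds Stat2 and Irf9 and binds an interferon-stimulated response element (ISRE) in its target genes. Interferon-gamma signals through Ifngr1 and Ifngr2 to factors that bind a gamma-activated site (GAS), and it induces Irf1 and Irf8, factors that extend the response. The products restrict viruses and intracellular microbes, present antigen, or damp the response, and in the vessel wall they are made by endothelial cells, smooth muscle cells, fibroblasts and resident macrophages.

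The promoters of a few members are shown because they carry the short motifs through which these genes are known to be read. RefSeq windows of 300 bases on GRCm38.p6, from 250 bases before to 50 bases after the annotated start, were found for 32 of the 42 listed genes, one of them Psmb9, so that 31 have both a window and expression values. The ISRE core searched was GAAA, any 2 bases and GAAA, and the GAS core was TTC, any 3 bases and GAA, each on both strands, with overlapping matches allowed. The lines below give the 150 bases before the start, 5′ to 3′ on the strand of the gene, with every match in capitals. Isg15 (chr4:156200819-156200968, minus strand), Ifit1 (chr19:34640739-34640888, plus strand) and Rsad2 (chr12:26456453-26456602, minus strand) are type I-type members. Irf1 (chr11:53769864-53770013, plus strand, the upstream one of its RefSeq starts), Igtp (chr11:58199406-58199555, plus strand) and Irgm2 (chr11:58214827-58214976, plus strand) are gamma-type members. Bst2 (chr8:71537473-71537622, minus strand) is a type I-type member that followed the other members least.
Isg15: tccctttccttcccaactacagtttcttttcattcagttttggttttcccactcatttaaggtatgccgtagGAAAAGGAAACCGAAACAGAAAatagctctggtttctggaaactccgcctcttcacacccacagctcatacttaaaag
Ifit1: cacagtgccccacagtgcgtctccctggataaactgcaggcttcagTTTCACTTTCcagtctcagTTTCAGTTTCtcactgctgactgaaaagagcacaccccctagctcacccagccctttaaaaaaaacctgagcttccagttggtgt
Rsad2: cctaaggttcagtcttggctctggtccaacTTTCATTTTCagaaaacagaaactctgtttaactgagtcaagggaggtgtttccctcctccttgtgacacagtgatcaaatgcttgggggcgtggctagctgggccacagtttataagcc
Irf1: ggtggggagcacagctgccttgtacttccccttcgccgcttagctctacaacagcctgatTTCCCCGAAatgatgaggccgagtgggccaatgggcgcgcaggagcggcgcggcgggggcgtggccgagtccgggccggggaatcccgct
Igtp: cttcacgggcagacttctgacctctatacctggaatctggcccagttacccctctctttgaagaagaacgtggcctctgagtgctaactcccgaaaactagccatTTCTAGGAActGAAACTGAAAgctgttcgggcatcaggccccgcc
Irgm2: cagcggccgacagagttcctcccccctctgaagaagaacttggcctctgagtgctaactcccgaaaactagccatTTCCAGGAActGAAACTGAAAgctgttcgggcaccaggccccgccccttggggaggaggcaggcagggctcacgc
Bst2: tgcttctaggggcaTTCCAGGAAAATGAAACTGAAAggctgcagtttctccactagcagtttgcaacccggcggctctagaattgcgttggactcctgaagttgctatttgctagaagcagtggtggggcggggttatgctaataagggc
Isg15 held 3 overlapping ISRE cores, which begin at -78, -72 and -66 from the start, and Ifit1 held them at -104 and -85. Rsad2 held 1 at -120. The matches of Ifit1 and Rsad2 read on the opposite strand. Igtp and Irgm2, neighbours on chromosome 11, each held a GAS core followed by an ISRE core, at -45 and -34 in Igtp and at -75 and -64 in Irgm2, and their printed windows shared a run of 38 identical bases. Irf1 held a GAS core at -90 and no ISRE core. In Bst2 a GAS core at -136 overlapped an ISRE core at -130, which in turn overlapped another at -124. Over all listed genes with a window, 16 of 32 genes (50%) held an ISRE core, 11 of 21 type I-type (52.4%) and 5 of 11 gamma-type (45.5%), and 3.99% of all 27025 genes with a window did. A GAS core stood in 9 of 32 (28.1%), in 4 of 21 type I-type (19.0%) and 5 of 11 gamma-type (45.5%), beside 9.55% of all genes with a window. The kappaB core (GGG, any 2 bases and TTTCC), a motif of the factors that interleukin-1 activates, stood in 0 of 32 listed genes and in 1.89% of all genes with a window. A match is only a run of letters in this window, and its use in these aortas was not measured.

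Library totals lay between 21668798 and 21700121 counted reads, a range of 0.145% of the lowest. Values are CPM, the reads of a gene scaled to a common library total after TMM normalization. Calling a gene required an adjusted p under 0.05 (edgeR's quasi-likelihood test, Benjamini-Hochberg method, 14528 genes). Smooth muscle markers, which define the tissue, summed to a median of 34385 CPM in control, 35531 in celecoxib and 29449 in rofecoxib libraries. Whether a library held the aorta of a single mouse is not stated in the labels. Celecoxib replicate 5 stood apart within its group for the type I-type members, with a level of 5.46 (mean log2 CPM over the 29 genes) where the next celecoxib library had 4.88. The fold changes, the spread and the covariation of the celecoxib group are given with and without it.

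RNA levels differed widely between members. Per kilobase of exon, Gbp2, a guanylate-binding protein that attacks membranes around microbes, had the highest control level, 834 ± 146 CPM per kb (SD, n = 8). Gbp3 was next at 97.7 ± 15.6 CPM per kb, then Isg15, a ubiquitin-like modifier, at 74.4 ± 9.85 CPM per kb, and the ranges of mean ± SD of these neighbours overlapped. Igtp (67.9 ± 17.3) and Iigp1 (67.7 ± 13.6), both immunity-related GTPases, did not differ beyond their spread on the same scale. Irf8 (0.778 ± 0.197 CPM per kb), a factor of macrophages and dendritic cells, and Oas3 (0.621 ± 0.196 CPM per kb), a sensor of double-stranded RNA, were at the bottom of the order and overlapped each other. Of the 10 highest members, 6 were gamma-type. Lengths were exon unions of GENCODE M21, which need not be the models the authors counted.

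The first question was whether the members differed between celecoxib and control aortas. The type I-type level was 5.20 ± 0.14 mean log2 CPM in control (SD, n = 8; lowest 5.05, median 5.17, highest 5.45) and 4.81 ± 0.30 with celecoxib (lowest 4.43, median 4.78, highest 5.46). In 7 of 8 celecoxib libraries it lay below the lowest control, and in replicate 5 it lay above the highest. The gamma-type level was 7.14 ± 0.16 in control (6.96, 7.12 and 7.39) and 6.85 ± 0.27 with celecoxib (6.47, 6.80 and 7.30), with 6 of 8 celecoxib libraries below the lowest control and 0 above the highest. The mean over all genes tested was 4.01 ± 0.03 in control and 3.97 ± 0.03 with celecoxib.

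Gene by gene, 40 of 41 members had a log2 fold change below 0 with celecoxib, beside 49.6% of all genes. The median was -0.33 over the members, -0.35 over the type I-type and -0.29 over the gamma-type, beside 0.001 over all genes tested. None of the 41 was called, in a comparison in which 5 of 14528 genes (0.0344%) were called by edgeR, and the smallest adjusted p of a member was 0.233. At an unadjusted p under 0.05 there were 15 members, all lower, beside 5.83% of all genes lower and 13.6% in either direction, and they were 13 of 29 type I-type and 2 of 12 gamma-type. In 23 of 41 members at least 5 of 8 celecoxib libraries lay below the lowest control, 20 of 29 type I-type and 3 of 12 gamma-type, beside 3.98% of all genes. Celecoxib replicate 5 was singled out after its high values for these members were seen, so values without it are lower by that choice. Without it, all 41 were below 0, 23 had an unadjusted p under 0.05 and 0 were called. The median was then -0.41, beside 0.003 over all genes. Leaving out 1 other library at a time gave 6 to 18 members at an unadjusted p under 0.05 and 0 called. The count fell under 10 without celecoxib replicates 2, 3, 4 or 7, or without control replicates 2, 6 or 8. The share of all genes at that unadjusted p was not computed for the fits with a library left out. In bulk tissue, fewer cells of a type and less RNA per cell cannot be told apart.

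With rofecoxib, the type I-type level was 4.95 ± 0.45 mean log2 CPM (SD, n = 8; lowest 4.39, median 4.99, highest 5.54), and the libraries were split, with 4 of 8 below the lowest control and 1 above the highest. The gamma-type level was 6.996 ± 0.440 (6.44, 6.99 and 7.64), with the same split of 4 below and 1 above. Replicates 4, 7 and 8 were the lowest of the group for both levels, and replicate 1 was the highest of all 24 libraries. In the fit, 36 of 41 members were below 0, beside 45.1% of all genes, with a median of -0.17 over the members, -0.18 over the type I-type, -0.13 over the gamma-type and 0.02 over all genes. None of the 41 was called, although 1008 of 14528 genes (6.94%) were called by edgeR in this comparison. Cmpk2 and Ifi35 had an unadjusted p under 0.05, 2 of 41 and both lower, beside 11.8% of all genes lower and 28.2% in either direction, and in 4 of 41 members at least 5 of 8 libraries lay below the lowest control, beside 7.45% of all genes. Without rofecoxib replicate 1, the count at an unadjusted p under 0.05 was 8 and the median was -0.28, beside 0.02 over all genes. That count was 6 without rofecoxib replicate 5, 4 without replicate 3 or 8, 1 without rofecoxib replicate 2 or control replicate 7, 0 without control replicate 8, and 2 or 3 without any other single library. The share of all genes at that unadjusted p was not computed for these fits. Both drug comparisons used the same 8 control libraries.

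**Figure D1:**
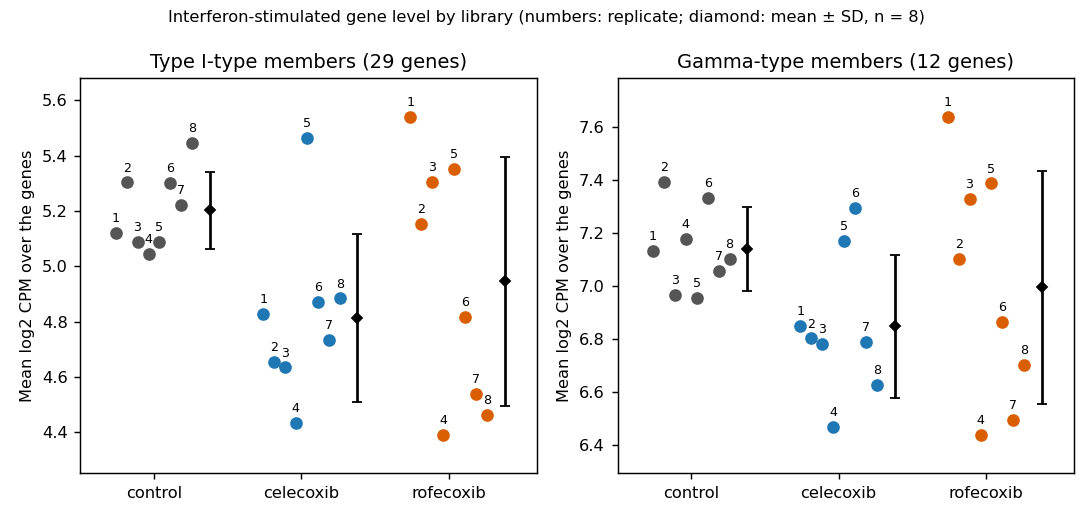
Level of the type I-type (left, 29 genes) and gamma-type members (right, 12 genes) in each library, as the mean log2 CPM over the genes. Points are libraries with their replicate number and diamonds are group means with SD (n = 8). Of the celecoxib points in the left panel, 7 lie under the lowest control and replicate 5 over the highest, and the rofecoxib points spread from 4.39 to 5.54.

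Replicate numbers 1 to 4 and 5 to 8 gave different values with rofecoxib. The type I-type level differed from that of the same-numbered controls by -0.50 (log2) in replicates 1 to 4 of celecoxib and by -0.28 in replicates 5 to 8. For rofecoxib the differences were -0.04 and -0.47. The gamma-type differences were -0.44 and -0.14 with celecoxib and -0.04 and -0.25 with rofecoxib. Fitted alone, replicates 1 to 4 gave 17 of 41 members below 0 with rofecoxib and a median of 0.03, beside 0.02 over all genes. Replicates 5 to 8 gave 37 of 41 and -0.39, beside 0.03 over all genes. The members thus stood near all genes in the first set and lower in the second. The difference between the sets was not tested, and the labels name no batch for these numbers.

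Among the transcription factors, Irf7, the factor that amplifies type I interferon production (ENSMUSG00000025498, mm9 chr7:148448403-148452582), had 37.9, 44.7 and 52.2 CPM in control (lowest, median and highest). It had 22.6, 27.5 and 49.3 CPM with celecoxib and 18.9, 35.2 and 60.7 CPM with rofecoxib. All but 1 of the celecoxib libraries lay below every control, and the log2 fold change was -0.54 (SE 0.20, adjusted p = 0.258), against -0.35 (SE 0.20, adjusted p = 0.247) with rofecoxib. Its counts carry a limit, because Irf7 overlaps Phrf1 in the table and the strand setting of the counting is not known. Irf9, the DNA-binding part of the complex with Stat2 (ENSMUSG00000002325, chr14:56222206-56229069), had 78.6, 87.3 and 99.1 CPM in control, 66.2, 75.6 and 97.2 with celecoxib and 60.1, 79.1 and 92.5 with rofecoxib. Its changes were small, with log2 fold changes of -0.19 (SE 0.08, adjusted p = 0.339) and -0.17 (SE 0.08, adjusted p = 0.197), and it overlaps Rnf31 in the table. Stat2 (ENSMUSG00000040033, chr10:127707427-127730107), the transactivating part of that complex, had 119, 127 and 171 CPM in control, 93.8, 112 and 141 with celecoxib and 76.8, 117 and 173 with rofecoxib. Its groups overlapped, at -0.24 (SE 0.14, adjusted p = 0.456) with celecoxib and -0.12 (SE 0.14, adjusted p = 0.596) with rofecoxib.

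Irf1, a factor induced by interferon-gamma and by interleukin-1 (ENSMUSG00000018899, chr11:53583314-53592078), varied most in control, from 110 to 482 CPM with a median of 158. It had 70.6, 132 and 241 CPM with celecoxib and 66.4, 136 and 273 with rofecoxib. The fitted values were the lowest of any member in both comparisons, -0.75 (SE 0.34, adjusted p = 0.338) and -0.59 (SE 0.34, adjusted p = 0.247), with wide intervals from -1.44 to -0.05 and from -1.29 to 0.10. Only 3 of 8 libraries of each drug group lay below the lowest control. Irf8 (ENSMUSG00000041515, chr8:123260056-123280796) had 3.43, 5.11 and 7.26 CPM in control, 3.50, 4.38 and 8.06 with celecoxib and 3.79, 6.32 and 11.8 with rofecoxib. It pointed in different directions with the drugs, -0.20 (SE 0.23, adjusted p = 0.703) and 0.39 (SE 0.22, adjusted p = 0.251).

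Of the antiviral effectors, Rsad2 (viperin, which makes a chain-terminating nucleotide; ENSMUSG00000020641, chr12:27127416-27141519) had the lowest fitted value of the type I-type members. It had 24.0, 31.7 and 37.7 CPM in control, 8.20, 17.5 and 34.0 with celecoxib and 12.1, 24.7 and 45.1 with rofecoxib. With celecoxib 7 of 8 libraries lay below every control and the log2 fold change was -0.73 (SE 0.28, adjusted p = 0.264), and with rofecoxib 4 lay below and 3 above, at -0.22 (SE 0.28, adjusted p = 0.617). Cmpk2, a mitochondrial nucleotide kinase next to Rsad2 (ENSMUSG00000020638, chr12:27153867-27164902), had 37.0, 44.8 and 60.2 CPM in control, 27.5, 33.0 and 54.5 with celecoxib and 22.6, 33.7 and 47.5 with rofecoxib. Its values for the drugs were -0.40 (SE 0.16, adjusted p = 0.287) and -0.39 (SE 0.16, adjusted p = 0.112), the latter the smallest adjusted p of a member with rofecoxib. Rtp4 (ENSMUSG00000033355, chr16:23609803-23614510), a receptor chaperone that interferon induces, had 27.9, 32.6 and 39.1 CPM in control, 17.1, 20.8 and 34.6 with celecoxib and 16.9, 29.7 and 50.5 with rofecoxib. It had the smallest adjusted p of a member with celecoxib, 0.233, at -0.55 (SE 0.19), with 7 of 8 libraries below every control, and stood at -0.16 (SE 0.19, adjusted p = 0.599) with rofecoxib. Ifi35 (ENSMUSG00000010358, chr11:101309519-101320214) had 82.3, 94.3 and 100.5 CPM in control, 79.9, 87.6 and 96.2 with celecoxib and 72.7, 84.9 and 95.1 with rofecoxib. It was at -0.08 (SE 0.06, adjusted p = 0.561) and -0.14 (SE 0.06, adjusted p = 0.142), and it overlaps Vat1, whose reads cannot be told apart from its own without strand.

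Most OAS proteins sense double-stranded RNA and activate an RNase. Of the 5 OAS and OAS-like genes 4 had an unadjusted p under 0.05 with celecoxib, beside 13.6% of all genes, Oas2 being the exception. Oas1a (ENSMUSG00000052776, chr5:121346063-121357738) had 5.83, 6.81 and 7.77 CPM in control, 3.36, 4.65 and 7.93 with celecoxib and 3.09, 5.80 and 8.76 with rofecoxib. In celecoxib 7 of 8 libraries lay below every control and 1 above, at -0.51 (SE 0.19, adjusted p = 0.255). Oas1a has a near-identical copy, Oas1g, with which reads may have been shared or lost. Oas3 (ENSMUSG00000032661, chr5:121202905-121227872) had 3.03, 3.93 and 7.08 CPM in control, 1.62, 2.82 and 4.06 with celecoxib and 1.36, 3.28 and 6.86 with rofecoxib, and its celecoxib value was -0.64 (SE 0.25, adjusted p = 0.278). Oas2 (ENSMUSG00000032690, chr5:121180140-121200064) had 8.74, 11.9 and 14.9 CPM in control, 6.21, 9.53 and 13.1 with celecoxib and 5.80, 11.5 and 16.3 with rofecoxib, so its groups overlapped. The 5 OAS genes ranged from -0.64 to -0.30 with celecoxib and from -0.24 to 0.03 with rofecoxib. Ifit1, which binds RNA lacking cap methylation (ENSMUSG00000034459, chr19:34715159-34724701), had 54.0, 76.5 and 92.6 CPM in control, 32.7, 45.9 and 101 with celecoxib and 28.4, 59.4 and 108 with rofecoxib. It had 6 celecoxib libraries below every control and 1 above, at -0.49 (SE 0.26, adjusted p = 0.401), and stood at -0.21 (SE 0.26, adjusted p = 0.599) with rofecoxib. The 3 IFIT genes ranged from -0.49 to -0.23 with celecoxib and from -0.21 to -0.03 with rofecoxib. The Mx genes, whose products are antiviral GTPases, were at -0.61 (Mx1) and -0.36 (Mx2) with celecoxib and at -0.11 and -0.14 with rofecoxib.

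The cytoplasmic RNA sensors Ddx58 (RIG-I), Ifih1 (MDA5) and Dhx58 (LGP2) ranged from -0.39 to -0.11 with celecoxib and from -0.21 to -0.17 with rofecoxib, with Ifih1 and Dhx58 at an unadjusted p under 0.05 in the former. Isg15 (ENSMUSG00000035692, chr4:155573331-155575129) had 44.6, 58.8 and 64.3 CPM in control, 31.6, 45.4 and 82.6 with celecoxib and 28.0, 51.3 and 71.7 with rofecoxib. Its groups overlapped widely, at -0.18 (SE 0.19, adjusted p = 0.689) and -0.14 (SE 0.19, adjusted p = 0.656). Usp18, the protease that removes Isg15 and blocks Ifnar2, was at -0.42 with celecoxib (adjusted p = 0.352) and -0.27 with rofecoxib (adjusted p = 0.371). Dtx3l, a ubiquitin ligase that works with Parp9 (ENSMUSG00000049502, chr16:35926395-35939439), had 69.2, 90.2 and 125 CPM in control, 43.8, 78.7 and 102 with celecoxib and 39.5, 64.8 and 108 with rofecoxib. In 5 of 8 rofecoxib libraries it lay below every control, at -0.39 (SE 0.21, adjusted p = 0.212), against -0.31 (SE 0.21, adjusted p = 0.505) with celecoxib. The ADP-ribosyltransferases Parp9 and Parp14 were at -0.15 and -0.39 with celecoxib and at -0.15 and -0.34 with rofecoxib. Bst2 (tetherin, which holds budding virions at the cell surface) stayed closest to 0 of the type I-type members with celecoxib, at -0.02, and was at 0.05 with rofecoxib.

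Among the gamma-type members, the guanylate-binding protein Gbp2 was the 1 member with a value above 0 with celecoxib. Gbp2 (ENSMUSG00000028270, chr3:142283364-142301174) had 1699, 2023 and 2637 CPM in control, 1530.4, 2212 and 3008 with celecoxib and 1465, 2006 and 2388 with rofecoxib, so its groups overlapped. It was at 0.04 (SE 0.14, adjusted p = 0.909) with celecoxib and -0.11 (SE 0.14, adjusted p = 0.634) with rofecoxib, and the sign of the former turned to -0.04 without celecoxib replicate 5. Gbp3 and Gbp6 were at -0.11 and -0.33 with celecoxib and at -0.12 and -0.01 with rofecoxib. The immunity-related GTPases, which disrupt the vacuoles of intracellular microbes, ranged from -0.40 to -0.29 with celecoxib and from -0.32 to 0.15 with rofecoxib. Of these, Igtp (ENSMUSG00000078853, chr11:58012856-58021295) had 97.2, 131 and 218 CPM in control, 78.5, 103 and 133 with celecoxib and 75.2, 140 and 252 with rofecoxib. It stood at -0.40 (SE 0.19, adjusted p = 0.371) and 0.15 (SE 0.19, adjusted p = 0.633). Tap1, which pumps peptides to class I molecules (ENSMUSG00000037321, chr17:34324296-34334372), had 66.1, 75.5 and 94.9 CPM in control, 44.3, 58.1 and 74.2 with celecoxib and 36.0, 65.0 and 110 with rofecoxib. It lay below every control in 5 of 8 celecoxib libraries, at -0.41 (SE 0.19, adjusted p = 0.361), and was at -0.19 (SE 0.19, adjusted p = 0.529) with rofecoxib. Psmb8, an immunoproteasome subunit encoded beside Tap1 (ENSMUSG00000024338, chr17:34334464-34338601), had 61.0, 65.4 and 78.0 CPM in control, 50.7, 67.0 and 75.3 with celecoxib and 65.4, 73.1 and 93.5 with rofecoxib. It was at -0.03 (SE 0.08, adjusted p = 0.902) with celecoxib and 0.16 (SE 0.08, adjusted p = 0.206) with rofecoxib.

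**Figure D2:**
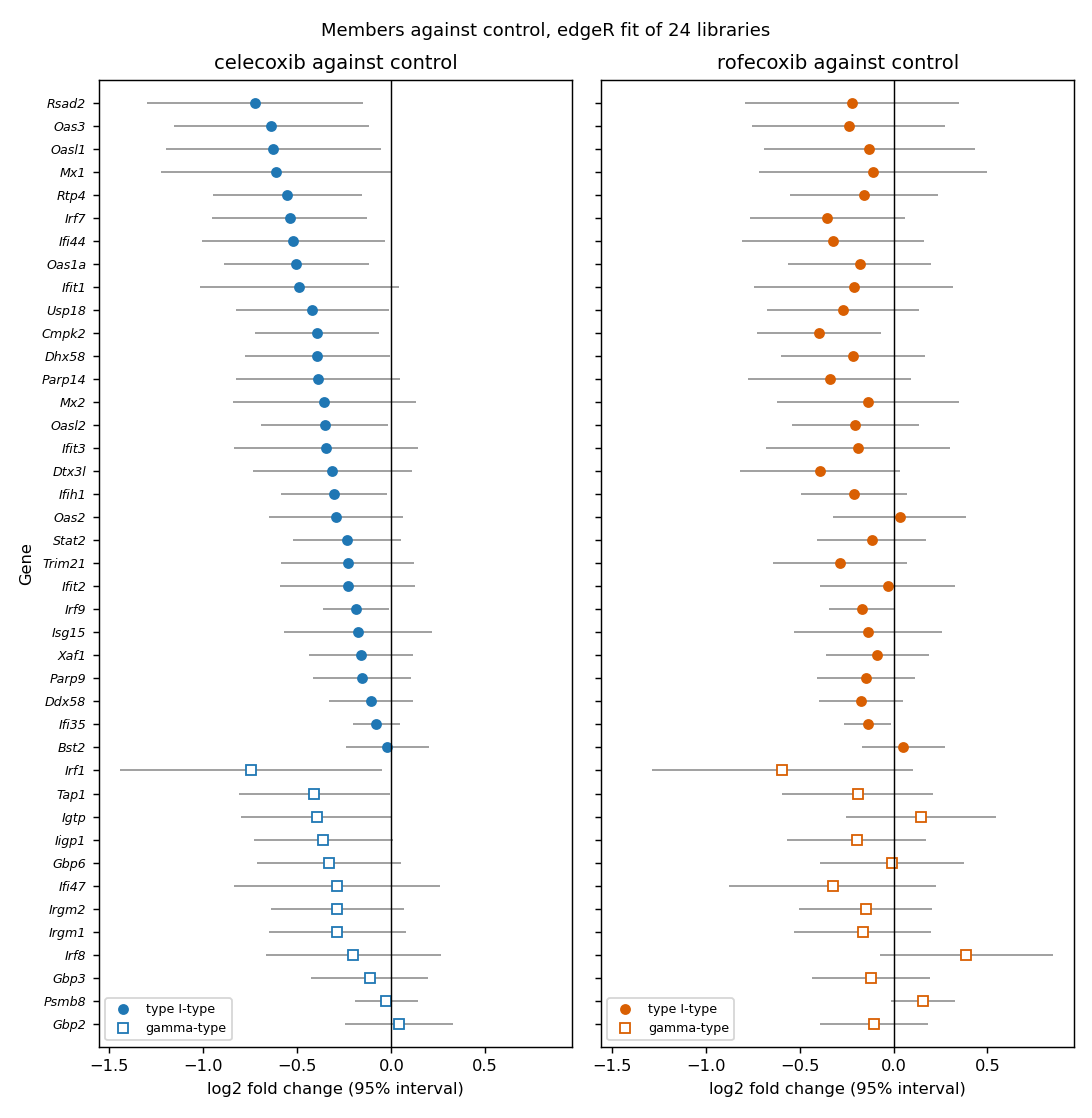
Log2 fold change of each member against control with its 95% interval, for celecoxib (left) and rofecoxib (right), from the edgeR fit of 24 libraries. Filled circles are type I-type and open squares gamma-type members, ordered by the celecoxib value within each class. On the left 40 of 41 points lie under 0 and on the right 36 of 41, and none passed the adjusted threshold.

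Set side by side at their different doses, celecoxib and rofecoxib gave 34 of 41 members below 0 for celecoxib against rofecoxib, beside 48.3% of all genes, and a median of -0.15, beside 0.006 over all genes. None of the 41 was called, where 710 of 14528 genes (4.89%) were called by edgeR, and 3 gamma-type members were lower at an unadjusted p under 0.05, beside 15.1% of all genes lower and 23% in either direction. These were Igtp at -0.55 (SE 0.19, interval -0.95 to -0.15, adjusted p = 0.0867), Irf8 at -0.59 (SE 0.22, adjusted p = 0.110) and Psmb8 at -0.18 (SE 0.08, adjusted p = 0.174). The interval of Rsad2 ran from -1.08 to 0.07 around -0.51, that of Rtp4 from -0.79 to 0.001 around -0.40 and that of Oas2 from -0.68 to 0.03 around -0.33, all including 0. For Cmpk2 the difference was -0.002, with an interval from -0.33 to 0.33. The call depended on single libraries: Irf8 was called without celecoxib replicate 7 (-0.74, adjusted p = 0.0458), and Irf8 (-0.68, adjusted p = 0.0392) and Igtp (-0.64, adjusted p = 0.0195) were called without rofecoxib replicate 8. In the latter fit 1997 genes were called over all genes tested, in place of 710, so the rise in calls was not particular to the members. In replicates 1 to 4 alone 8 members were called, all lower with celecoxib, where 2073 of 14669 genes (14.1%) were called in that fit. In replicates 5 to 8 alone 0 members and 0 genes were called and the median was 0.14. With macrophage and lymphocyte marker levels as covariates the direction turned, with 11 of 41 members below 0, a median of 0.07 and 0 at an unadjusted p under 0.05. The lymphocyte level averaged 14 T and NK and 6 B lymphocyte markers. Of these Lck alone passed the filter, so that covariate rested mostly on genes with few reads, here and in the other fits that used it. With brown adipocyte and skeletal muscle covariates 41 of 41 were below 0, at a median of -0.38 and with 13 at an unadjusted p under 0.05. In both of these fits 0 members were called, and the share of all genes at that unadjusted p was not computed.

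The interferon ligands were hardly sequenced. Of 22 listed ligand genes 7 had a row and 0 passed the filter. Ifnb1, the first type I interferon made by most cells, had 1 read in 1 of the 24 libraries, and Ifng, made by T and NK lymphocytes, had at most 2 reads and a read in 5 libraries, so no difference was detectable at this depth. The receptors were expressed and differed little. Ifnar1 had 68.8, 79.5 and 93.1 CPM in control, 69.5, 74.5 and 108 with celecoxib and 64.0, 80.8 and 99.9 with rofecoxib, and Ifngr1 had 172, 185 and 200 CPM, 164, 180 and 195 CPM and 154, 182 and 196 CPM in the same order. The receptor genes with the smallest p against control were Ifngr1 (-0.05, adjusted p = 0.682) and Il10rb, a chain shared with interleukin-10 (-0.10, adjusted p = 0.738), with celecoxib, and Ifngr2 (-0.14, adjusted p = 0.306) and Il10rb (-0.13, adjusted p = 0.483) with rofecoxib. Between the drug groups they were Ifngr2 (0.18, adjusted p = 0.246) and Ifnar2 (-0.14, adjusted p = 0.550). None of the 6 receptor genes tested was called in any comparison, with medians of -0.01 for both drugs against control.

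Of the 20 tested genes of sensing and signal relay, 15 were below 0 with celecoxib (median -0.10) and 13 with rofecoxib (median -0.11), with 0 called against control. The smallest p with celecoxib were those of Tlr7, the endosomal RNA receptor (-0.70, SE 0.22, adjusted p = 0.197), and Zbp1, a nucleic acid sensor (-0.45, SE 0.19, adjusted p = 0.293). With rofecoxib they were those of Irf2, a repressor of interferon targets (-0.31, SE 0.12, adjusted p = 0.0985), and Traf3, a signalling adaptor (-0.16, SE 0.07, adjusted p = 0.173).

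Of the 8 inhibitors, 6 were below 0 with celecoxib (median -0.12) and 4 with rofecoxib (median 0.04), with 0 called against control. Socs1, the feedback inhibitor of the JAKs, had 3.72, 5.18 and 7.82 CPM in control, 2.61, 4.77 and 5.92 with celecoxib and 3.81, 4.999 and 8.52 with rofecoxib, at -0.23 (adjusted p = 0.572) and 0.11 (adjusted p = 0.716). Pias1, a SUMO ligase that restrains cytokine signalling, was at -0.23 with rofecoxib (SE 0.07, adjusted p = 0.0521). Ptpn6 and Ptprc, phosphatases carried mainly by leukocytes, were called lower in celecoxib than in rofecoxib, at -1.15 (SE 0.26) and -1.18 (SE 0.28), each at an adjusted p of 0.0369. They were not called against control, at -0.43 and -0.63 with celecoxib and 0.72 and 0.55 with rofecoxib, and their calls were lost in 14 and 15 of 37 alternative fits. Of 13 macrophage markers, 13 were also below 0 between the drug groups (median -0.48, 5 called lower). Of 8 tested neutrophil markers, 8 were (median -1.45, 7 called lower). The part of these cells in the values of Ptpn6 and Ptprc was not tested beyond the fit with macrophage and lymphocyte levels as covariates, which gave -0.39 and -0.32. No fit held neutrophil levels.

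A further list of 78 tested interferon-induced genes, apart from the members but sharing genes such as Ifi204 and Zbp1 with the list above, had 64 below 0 with celecoxib (median -0.20, 19 at an unadjusted p under 0.05, all lower, 0 called) and 42 with rofecoxib (median -0.03). With celecoxib the smallest p were those of Ido1, which degrades tryptophan (-1.23, SE 0.37, adjusted p = 0.195, 0.279 to 1.93 CPM in control), and Daxx (-0.26, SE 0.08, adjusted p = 0.206). Cxcl10, a chemokine for T cells, had 16.2, 29.5 and 40.1 CPM in control, 7.51, 14.1 and 33.3 with celecoxib and 5.76, 15.0 and 50.0 with rofecoxib. It was at -0.91 (SE 0.39, adjusted p = 0.313) and -0.35 (SE 0.38, adjusted p = 0.554). With rofecoxib 2 of the 78 were called. Ciita, the master regulator of class II antigen presentation, rose by 1.10 (SE 0.25, adjusted p = 0.0152), from a median of 1.58 to 3.08 CPM. Fgl2, a prothrombinase and immune regulator, fell by 0.40 (SE 0.09, adjusted p = 0.0187), from a median of 1107 to 819 CPM. Both calls were lost with macrophage and lymphocyte levels as covariates, Ciita at 1.05 (adjusted p = 0.0548) and Fgl2 at -0.31 (adjusted p = 0.0926). They were also lost in replicates 1 to 4 alone (1.11, adjusted p = 0.131, and -0.29, adjusted p = 0.199) and in replicates 5 to 8 alone (1.09, adjusted p = 0.115, and -0.51, adjusted p = 0.0648). The call of Fgl2 was lost with brown adipocyte and skeletal muscle covariates too (-0.33, adjusted p = 0.0732).

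Acute interleukin-1 target genes were compared between the diets, and with every mouse injected their response to the cytokine itself could not be measured. Of these genes 25 of 25 were below 0 with celecoxib (median -0.46, 5 at an unadjusted p under 0.05, 0 called) and 19 of 25 with rofecoxib (median -0.36). With celecoxib the smallest p were those of Saa3, an acute-phase protein (-0.51, SE 0.17, adjusted p = 0.218), and Cxcl2, a neutrophil chemokine (-1.76, SE 0.63, adjusted p = 0.245). Il1b, the gene of the endogenous cytokine, rose with rofecoxib by 1.22 (SE 0.33, adjusted p = 0.0313), and Ptgs2, the target of both drugs, fell by 0.72 (SE 0.22, adjusted p = 0.0492). The call of Il1b was lost in 14 and that of Ptgs2 in 21 of 37 alternative fits. In celecoxib Il1b was lower than in rofecoxib, at -1.74 (SE 0.34, adjusted p = 0.0369), a call also lost in 14 of 37.

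The SD of most members was larger among the libraries of each drug group than among controls, and in celecoxib its size rested in part on 1 library. The median SD of log2 CPM over the 41 members was 0.21 in control, 0.38 with celecoxib and 0.51 with rofecoxib, beside 0.17, 0.20 and 0.22 over all genes. The SD was larger than in control for 38 of 41 members with celecoxib, beside 61.8% of all genes, and for 38 of 41 with rofecoxib, beside 71.1%. Without celecoxib replicate 5, a setting chosen after the values were seen, the celecoxib median was 0.29 and 34 of 41 members had a larger SD than in control, beside 59.2% of all genes. The SD of the type I-type level in that group was then 0.16 in place of 0.30, close to the 0.14 of control, and that of Ifit1 was 0.30 in place of 0.50, the control value being 0.30. The SD of the gamma-type level was 0.25 in place of 0.27. Leaving out any other single celecoxib library gave medians from 0.35 to 0.40 and 37 to 39 members, and leaving out 1 rofecoxib library gave 0.46 to 0.54 and 38 to 40 members. With 1 control library left out, 37 to 40 members had the larger SD in celecoxib and 38 to 40 in rofecoxib. Over the acute interleukin-1 genes the medians were 0.48, 0.54 and 0.69, so their SD was already large in control. Members share libraries and are not independent, so no test of the spread was made. The largest SDs with rofecoxib were those of Oasl1 (0.89) and Mx1, and Irf1 had the largest in control, 0.78.

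**Figure D3:**
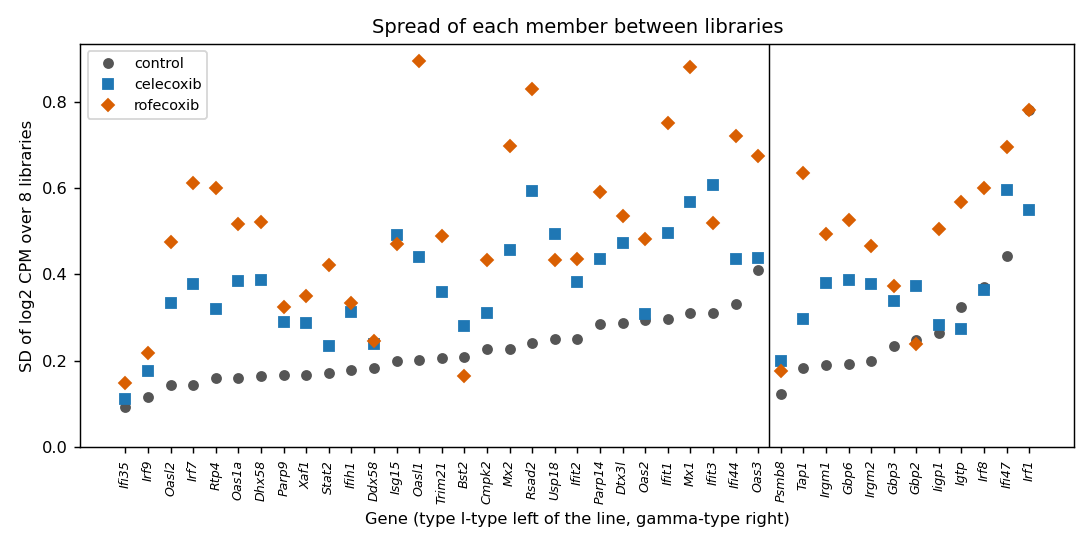
SD of log2 CPM over the 8 libraries of each group, for each member, with type I-type members left of the line and gamma-type right, ordered by the control value within each class. Circles are control, squares celecoxib and diamonds rofecoxib. In each drug group 38 of 41 members lie above their control value, and in celecoxib 34 of 41 do without replicate 5.

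The members varied together from library to library. After group means were taken off, the median Pearson r over the 24 libraries was 0.71 among the 406 pairs of type I-type members (Spearman 0.66), 0.60 among the 66 pairs of gamma-type members (Spearman 0.61) and 0.59 between the classes (Spearman 0.58). Over all pairs of genes tested it was -0.003, with 5% of pairs below -0.52 and 5% above 0.54. All pairs share the same libraries and scaling, so these values are a description. Within groups, the type I-type median was 0.48 in control, 0.71 with celecoxib and 0.82 with rofecoxib, and the gamma-type median was 0.21, 0.56 and 0.81. Without the 2 libraries farthest from the middle of the type I-type level, celecoxib replicate 5 and rofecoxib replicate 1, the medians were 0.63 and 0.54. Within celecoxib, the type I-type median was 0.40 in place of 0.71 without replicate 5, below the 0.48 of control. The gamma-type median there was 0.46 without replicate 5 and 0.35 without replicate 6, and ran from 0.43 to 0.68 without another single library. Other single celecoxib libraries left the type I-type median at 0.65 to 0.75, and single rofecoxib libraries left it at 0.78 to 0.89.

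Of single members, Oasl2 and Ifit1 followed the type I-type level most closely, both at r = 0.96 (rho 0.94), then Mx1 at 0.95 and Rtp4 and Ifih1 at 0.94. Each member was left out of the level of its own class before its r was taken. Least close were Bst2 at 0.21 and Irf1 at 0.34, then Oas2 at 0.49, Ifi35 at 0.51, Irf8 at 0.52 and Oas3 at 0.54. Bst2 had r below 0 with 13 of the other 40 members, and its closest partner was Psmb8, at 0.63. An r above 0.8 was reached by 22 of 41 members, 18 of 29 type I-type and 4 of 12 gamma-type, and by 41 of 14487 other genes (0.283%). Stat2, Parp9, Parp14, Dtx3l and Trim21, listed as type I-type, followed the gamma-type level more closely, at 0.94, 0.88, 0.86, 0.81 and 0.84 against 0.80, 0.76, 0.67, 0.61 and 0.63 with the type I-type level. Ifi35 was at 0.52 against 0.51, and 5 of 12 gamma-type members were closer to the type I-type level. These were Gbp3 (0.81 against 0.76), Iigp1 (0.68 against 0.62), Gbp2 (0.63 against 0.50), Igtp (0.61 against 0.58) and Psmb8 (0.60 against 0.43). The closest pair of all was Irgm1 and Irgm2, at 0.98. Members with an ISRE core in the window had a median r of 0.81 with the type I-type level (n = 16), and members whose window held none had 0.83 (n = 15). With a GAS core the median was 0.60 (n = 9), and without one 0.84 (n = 22). A GAS core stood in 5 of 11 gamma-type and 4 of 21 type I-type genes with a window. Gamma-type members reached an r above 0.8 less often, so class and motif cannot be told apart here.

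**Figure D4:**
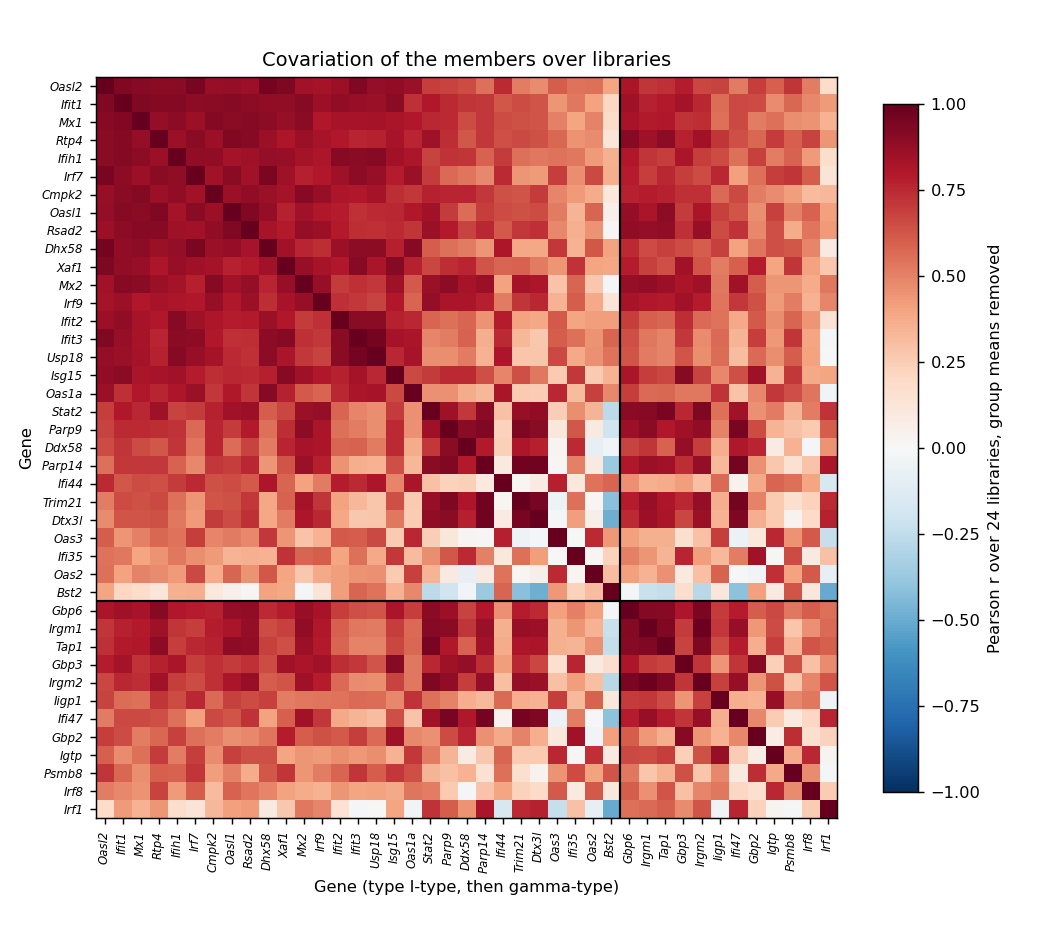
Pearson r between members over 24 libraries after group means were removed, from -1 (blue) to 1 (red), with type I-type members before the black lines and gamma-type after them, each ordered by r with the type I-type level. Most cells are red, with medians of 0.71 and 0.60 within the classes, and the palest row is that of Bst2, with a median r of 0.12.

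Neighbouring genes were compared in 3 pairs with group means removed, as a description beside the class medians of 0.71 and 0.60. Parp9 and Dtx3l, which overlap in the table, had r = 0.90 (rho 0.89) over 24 libraries. The r was also taken without the 2 libraries farthest from the middle for the first gene of each pair, which gave 0.87 here. Rsad2 and Cmpk2, neighbours on chromosome 12, had r = 0.89 (rho 0.90), and 0.89 without the 2 libraries farthest for Rsad2. Of the other 39 members, 5 followed Rsad2 more closely than Cmpk2 did, among them Oasl1 at 0.92 and Mx1 and Rtp4 at 0.91. Igtp and Irgm2, whose upstream windows are printed above, had r = 0.64 (rho 0.70), and 0.57 without the 2 libraries farthest for Igtp. Of the other 39 members, 13 followed Igtp and 24 followed Irgm2 more closely than the neighbours followed each other. The r of the pair was 0.24 within control, 0.81 within celecoxib and 0.70 within rofecoxib. The r of Irgm2 with Irgm1 was 0.98.

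Other gene lists followed the members to different degrees. Over the 24 libraries with group means removed, r with the type I-type level was 0.97 for the further interferon-induced genes (rho 0.98), 0.87 for sensing and relay, 0.86 for the gamma-type members, 0.75 for the inhibitors and 0.63 for the receptors. It was 0.60 for the acute interleukin-1 genes (rho 0.47) and 0.54 without the 2 farthest libraries. Within groups that last list was at 0.04 in control, 0.43 with celecoxib and 0.81 with rofecoxib. In control alone r was also low for the inhibitors (0.0091), sensing and relay (0.24) and the receptors (0.28), then 0.45 for the gamma-type members and 0.93 for the further interferon-induced genes. The acute interleukin-1 level followed the gamma-type level more closely, at 0.85 over 24 libraries. Rofecoxib replicates 1, 3 and 5 were the highest and replicates 4 and 7 among the lowest of their group for both classes of members and for the interleukin-1 list, while control replicate 8 was high for the type I-type members and lowest of the controls for the interleukin-1 list.

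**Figure D5:**
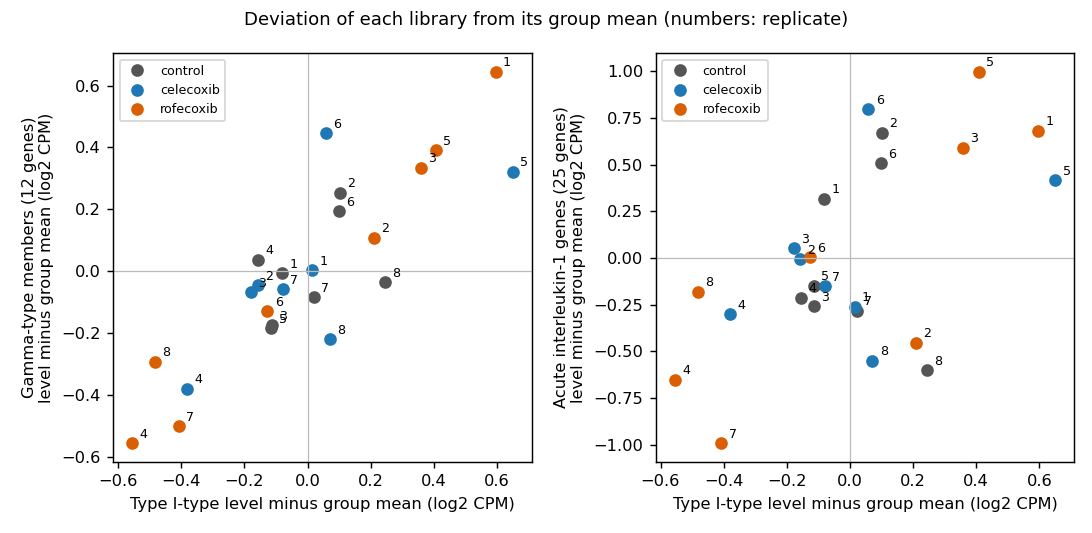
Deviation of each library from its group mean for the type I-type level (x axis) against the gamma-type level (left) and the acute interleukin-1 gene level (right), all in log2 CPM, with replicate numbers beside the points. Over 24 libraries r was 0.86 in the left panel and 0.60 in the right, where control points lie nearly without slope (r = 0.04).

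Markers of cells that could carry the members differed between groups in part. Summed macrophage markers (13 of 14 matched, none at 0 in every library) had medians of 211 CPM in control (188 to 299), 200 with celecoxib (132 to 289) and 298 with rofecoxib (157 to 394). Summed neutrophil markers had 43.0 CPM (22.8 to 95.7), 26.2 (12.2 to 43.2) and 62.3 (24.9 to 144). T and NK lymphocyte markers summed to only 4.34, 2.82 and 3.84 CPM and B lymphocyte markers to 0.826, 0.594 and 1.32 CPM, with Cd3e at 0 to 18 reads per library. Against control with celecoxib, 12 of 13 macrophage and 8 of 8 tested neutrophil markers were below 0 (medians -0.14 and -0.84), with 0 called. With rofecoxib 0 of 13 and 0 of 8 were below 0 (medians 0.34 and 0.62, 1 and 0 called higher), opposite in sign to the members' median of -0.17. Summed white and general adipocyte markers had medians of 1784 CPM in control, 1744 with celecoxib and 3144 with rofecoxib. Brown adipocyte markers had 434, 386 and 969 CPM. With rofecoxib 0 of 9 and 0 of 7 of them were below 0 (medians 0.80 and 0.81, 3 and 0 called higher). Of Schwann cell markers 0 of 6 were (median 1.08, 0 called), and of endothelial markers 1 of 9 (median 0.26, 2 called higher). Over libraries, r with the type I-type level was 0.56 for T and NK lymphocyte markers, of which Lck alone was tested, and 0.67 without the 2 farthest libraries. It was 0.46 for dendritic cell, 0.42 for plasmacytoid dendritic cell, 0.41 for adventitial fibroblast, 0.39 for neutrophil and 0.38 for macrophage markers. The plasmacytoid value rested on 2 genes, Tcf4 (1352 to 2130 reads per library) and Runx2 (12 to 38), with Bst2 left out as a member. The other markers of that list, Siglech, Ccr9 and Klk1, did not pass the filter, so these cells were hardly measured. For endothelial markers r was 0.23, for smooth muscle -0.23 and for brown adipocyte markers -0.46, the last at -0.19 without the 2 libraries. With macrophage and lymphocyte levels as covariates, 37 of 41 members were below 0 with celecoxib, at a median of -0.20 and with 1 at an unadjusted p under 0.05, and 39 of 41 with rofecoxib, at -0.27 and with 10. With covariates for brown adipocyte and skeletal muscle, the values were 40 of 41 and -0.42 with celecoxib, with 31 at an unadjusted p under 0.05, and 27 of 41 and -0.04 with rofecoxib. In each of these fits 0 members were called. The share of all genes at an unadjusted p under 0.05 was not computed for these fits, so their counts of members have no background beside them. What part these cells had in the members' levels was not tested beyond these fits.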

How the data were processed

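RNA of 24 aorta libraries was measured by poly(A) sequencing with 13 PCR cycles, per the labels' protocols. The authors deposited read counts per gene, with coordinates on mm9. Per the submitters' processing notes, CASAVA 1.8.1 and STAR 2.5.1b were used. The counting tool, the annotation, the strand setting and the reason why library totals nearly match are not given in the sources used here. Labels call the libraries biological replicates, and p-values set the differences between group means against the spread between libraries.

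Members were matched by symbol. Members and lists were chosen with earlier results of these data known. Counts were fitted with edgeR 4.0.16 in R 4.3.3 (TMM scaling, filterByExpr, quasi-likelihood test, 1 mean per group, all 24 libraries), and p-values were adjusted by Benjamini-Hochberg over the 14528 genes tested. The biological coefficient of variation was 19.6%. Levels used log2 CPM with a prior count of 2. Per comparison, the 6 members with the smallest unadjusted p were named, and 10 members for their role, some of them among those 6, and from each pathway list the called genes, otherwise the 2 with the smallest p, with more by role. A result for 1 gene of these lists is not reported here. The other members named were picked as examples after their values were seen. Alternatives were RLE or no scaling factors, other filters, DESeq2 1.42.0, limma 3.58.1 voom, other samples and covariates, and, chosen after the data were seen, the spread and covariation with each library left out. For the alternative fits, the share of all genes at an unadjusted p under 0.05 was not computed. The script was tested on simulated data. No 2 libraries agreed within sampling noise.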

Additional observations from a re-analysis of the deposited data

Results flagged for a closer look

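Of 129 groups of 8 values examined (each member and level in each diet group), 15 had a highest library whose gap to the next, over the group's range, exceeded Dixon's 95% critical value, which is 11.6%, where chance gives about 1 in 20. The members share libraries, so these are not independent. Celecoxib replicate 5 accounted for 8 of them. It had 100.7 CPM of Ifit1 where the next celecoxib library had 63.4, 7.93 CPM of Oas1a (next 5.32), 11.9 of Mx1 (next 6.04) and 19.98 of Mx2 (next 11.7). It also had 21.4 CPM of Usp18 (next 14.1), 59.2 of Ifih1 (next 40.5) and 54.5 of Cmpk2 (next 35.8), and its type I-type level was 5.46 (next 4.88). Control replicate 8 was the highest control for Ifit3 at 167 CPM (next 114), Usp18 at 22.1 (next 16.3), Ifi44 at 15.2 (next 11.1) and Dhx58 at 13.4 (next 11.1), all type I-type members. Control replicate 4 was the highest for the gamma-type GTPases Igtp at 218 CPM (next 139) and Iigp1 at 565 (next 438). Celecoxib replicate 7 had 8.06 CPM of Irf8 (next 5.26).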

How the results depend on the processing

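For 67 named results, 2477 values under 13 other settings and with each of 24 libraries left out gave 2332 with the same direction and side of the threshold, 104 that lost a call, 20 that gained one and 21 that changed sign. With celecoxib against control, the 5 genes called over all genes became 2 with no filter, 107 with DESeq2, 121 with voom, 45 with only these groups, 174 with the replicate sets 1 to 4 and 5 to 8 as a term, 9 and 313 in those sets alone, 11 with macrophage and lymphocyte covariates and 0 with brown adipocyte and skeletal muscle covariates, and 0 (without celecoxib replicate 7) to 34 (without celecoxib replicate 2) with 1 library left out. With rofecoxib, 1008 became 557 with no filter, 1796 with DESeq2, 2448 with voom, 1735 with the sets as a term, 42 and 401 in the sets alone, 107 and 220 with those pairs of covariates, and 358 (without control replicate 2) to 1945 (without rofecoxib replicate 8). For celecoxib against rofecoxib, 710 became 1423 with DESeq2, 1481 with voom, 2073 and 0 in the sets alone, 0 with no filter, with only these groups or with either pair of covariates, and 0 to 1997 with 1 library left out. With scaling by library size alone, 78.1% of the rofecoxib calls were higher, against 55.9%, and 42.9% against 20% of the few celecoxib calls.

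Members called stayed at 0 against control except for Cmpk2, 1 member, with rofecoxib by voom (-0.45, adjusted p = 0.0336). Between the drug groups 8 were called in replicates 1 to 4 alone, and 0 to 2 with 1 library left out. The median r of the gamma-type members was 0.21 in control libraries alone. The cause of these differences was not tested.

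Signs changed for Gbp2 with celecoxib by voom (-0.019), in replicates 1 to 4 (-0.10), with brown adipocyte and skeletal muscle covariates (-0.055) and without celecoxib replicates 5 (-0.039) or 6 (-0.015), in a range from -0.039 to 0.10 with 1 library left out. In replicates 5 to 8 with celecoxib they changed for Irf8 (0.31) and Isg15 (0.12), and with macrophage and lymphocyte covariates for Irf8 (0.029). With rofecoxib they changed in replicates 1 to 4 for Ifit1 (0.11) and Gbp2 (0.083), with brown adipocyte and skeletal muscle covariates for Isg15 (0.029), Ifit1 (0.021) and Gbp2 (0.028), for Igtp in replicates 5 to 8 (-0.0041) and with macrophage and lymphocyte covariates (-0.17), and for Socs1 without rofecoxib replicate 1 (-0.0011). Between the drug groups they changed in replicates 5 to 8 for Rtp4 (0.11), Rsad2 (0.14) and Ifnar2 (0.075), and with macrophage and lymphocyte covariates for Igtp (0.029) and Oas2 (0.11).

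Over 24 same-numbered pairs of libraries the correlation of deviations ran from -0.30 to 0.56 (median 0.11, 12 above 0.1), and 6 matched best with their own number. No chance value was computed, so whether the replicate numbers pair the libraries was not tested. With the replicate number as a block, 27, 1187 and 0 genes were called in the comparisons in the order above, and 0 members in each.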
